A study of Saccharomyces cerevisiae with 8 samples.

Results

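The comparison described here sets Mcm6-SuOn cells directly against Mcm6-ctrl cells at 40 min after release from a cdc7-4 block, by the number of sequencing reads in each window of the budding yeast genome. Its members are windows of 1000 bp placed every 500 bp. They were chosen as those with a deposited ratio above 0 in both 40 min files, and 237 windows at the right end of chromosome III were left out. This gave 22644 of 24133 windows, or 93.8%. For every window the read count of each 40 min library was recovered from the deposited ratio and divided by the library's median window, so that no 0 min library stands in the denominator.

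Whole genomic DNA of diploid yeast of the W303 background was sequenced in 8 libraries, from 2 genotypes at 4 times, to follow copy number change and origin firing. The first genotype was cdc7-4/cdc7-4 with Mcm6-SuOn::KAN/+ and was sampled at 0, 15, 30 and 40 min. The second genotype carried Mcm6-ctrl::KAN/+ on the same cdc7-4/cdc7-4 background and was sampled at the same times. Both genotypes also carried Mcm6-aid::HIS3/+ and ADH1-TIR::URA/+, so all cells were homozygous for cdc7-4 and heterozygous for an auxin-degradable Mcm6. Each genotype bears a single strain identifier over its 4 libraries, and the labels do not spell out what SuOn stands for. The cells were held with nocodazole at G2/M, given auxin (IAA) to remove Mcm6-aid, warmed to inactivate the cdc7-4 kinase and then cooled to let S phase begin. There is 1 library for each genotype and time, so no difference below has a replicate check, and no test between genotypes was made. Intervals are exact binomial intervals at 95% and cover counting error only.

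Replication starts at origins, where the MCM complex, the replicative helicase of which Mcm6 is a subunit, has been loaded before S phase. The kinase Cdc7 acts on loaded MCM to set it in motion. Origins fire in a temporal order, so early regions gain copies first, late regions catch up, and relative copy number evens out as S phase ends. Coverage in a sequencing library is relative to the rest of the genome, and total DNA content per cell is not measured by it.

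At 40 min the median window held 2014 reads in Mcm6-SuOn and 1473 reads in Mcm6-ctrl. Outside the left-out part of chromosome III, 1252 windows were listed at 0 in at least 1 of the files, 600 of them within 30 kb of a chromosome end. Of these, 135 were listed at 0 in Mcm6-ctrl only and none in Mcm6-SuOn only. In these 135 windows the median 0 min count was 759 in Mcm6-SuOn and 535 in Mcm6-ctrl, and no window with a 0 min count of 600 or fewer had a ratio above 0 in that genotype's file. The windows missing from the comparison are therefore concentrated near chromosome ends and depend in part on the 0 min counts. No gene names are attached to windows, because no annotation of the build used (sacCer2) was used here.

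The genotypes differed in broad stretches of the genome by small amounts, mostly under 1.1-fold. The log2 ratio of Mcm6-SuOn to Mcm6-ctrl had an SD of 0.112 over windows, where read counting alone gives 0.0498. Its quartiles were -0.0724 and 0.0706, and its 5th and 95th percentiles corresponded to 0.881-fold and 1.13-fold. At a threshold of 1.1-fold, 2344 windows (10.4%) had more relative coverage in Mcm6-SuOn and 2343 (10.3%) had less. The near-equal split follows from dividing each library by its median and is no result. At 1.2-fold, 240 windows were higher and 277 were lower.

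Much of this spread extended over long distances. Averaged over 50 kb, the 40 min ratio still had an SD of 0.0772, or 68.8% of the spread of single windows. At 15 min the SD at 50 kb was 0.0333 (38.5% of the single-window value), and at 30 min it was 0.0412 (41.2%). At 0 min it was 0.118 (78.6%), larger than at 40 min. Read counting made up more of the single-window spread at 15 and 30 min, with counting SDs of 0.0574 and 0.0531, so these percentages understate the broad part there. Averaged over 20 kb the SDs were 0.0403, 0.0615 and 0.0871 at 15, 30 and 40 min.

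**Figure D1:**
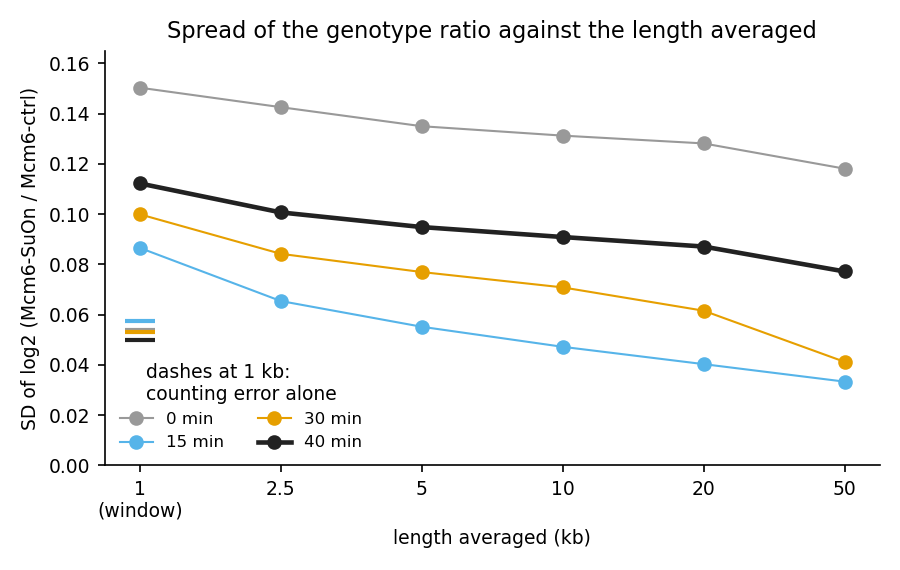
SD of the log2 ratio of Mcm6-SuOn to Mcm6-ctrl over windows (y axis) against the length over which the ratio was averaged (x axis, kb, categories), for the comparisons at 0, 15, 30 and 40 min with 1 library per genotype and time. Short dashes at 1 kb give the SD that read counting alone would produce. The 40 min curve falls only to 0.0772 at 50 kb, while the 30 min curve falls to 0.0412.

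The 40 min ratio was opposed to the 0 min ratio and resembled the 30 min ratio weakly. Over 22644 windows it correlated with the 0 min ratio at r = -0.477, and at r = -0.667 after averaging over 10 kb. With the 30 min ratio the values were 0.125 and 0.242, and with the 15 min ratio -0.0972 and -0.196. The libraries in these pairs are separate, but neighbouring windows overlap and share sequence and mappability, so the correlations are given as descriptions. Of the windows lower in Mcm6-SuOn at 40 min, 1287 (54.9%) were at least 1.1-fold higher at 0 min, where 18% of all windows were. Of those higher at 40 min, 569 (24.3%) were lower at 0 min, where 12.2% of all windows were. At 30 min the called windows leaned the same way as at 40 min, with 271 (11.6%) of the higher ones also higher and 286 (12.2%) of the lower ones also lower, against 8.75% of all windows in either direction. At 15 min 94 (4.02%) of the higher windows were also higher and 103 (4.40%) of the lower ones also lower, beside 5.53% and 5.24% of all windows.

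Windows ranked early by 15 min coverage over 0 min counts were lower in Mcm6-SuOn at 40 min, and windows ranked late were higher. For this comparison, the windows more than 30 kb from an end were ranked by the mean 15 min copy number of both genotypes, over the pooled 0 min counts, and divided into quintiles. The 15 min libraries do not enter the 40 min ratio. The median log2 ratio at 40 min was -0.0800 in the earliest quintile and 0.0504 in the latest quintile, with 4275 windows in each. The intermediate quintiles lay in order between these, at -0.0191, 0.00972 and 0.0360 from early to late. In summed reads, the earliest quintile had 4026494 reads in Mcm6-SuOn and 3112505 in Mcm6-ctrl, a scaled ratio of 0.946 (0.945 to 0.948). The latest quintile had 4649031 and 3279345 reads, a ratio of 1.037 (1.035 to 1.038). Of the earliest windows, 27.6% were at least 1.1-fold lower in Mcm6-SuOn and 1.94% were higher. Of the latest windows, 1.05% were lower and 17.5% were higher.

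The median coverage of the classes, with the library's median window as 1, shows how each library was placed. In Mcm6-SuOn, the earliest quintile had 0.965, 1.018, 1.012 and 0.938 at 0, 15, 30 and 40 min. In Mcm6-ctrl it stood at 0.872, 1.016, 1.042 and 0.991 at the same times. Both genotypes were thus lower in early windows at 40 min than at 30 min, and in this ranking the drop was larger in Mcm6-SuOn. The latest quintile stood in Mcm6-SuOn at 1.043, 0.993, 0.995 and 1.072, and in Mcm6-ctrl at 1.109, 0.995, 0.967 and 1.038. In Mcm6-SuOn the earliest quintile at 40 min lay below its own 0 min value and the latest quintile above it. Neither statement on Mcm6-SuOn held for every ranking. Ranked over the Mcm6-SuOn 0 min counts alone, the earliest quintile stood at 0.982, 1.041, 1.032 and 0.999 in Mcm6-SuOn and at 0.959, 1.057, 1.079 and 1.024 in Mcm6-ctrl, so that the drop after 30 min was larger in Mcm6-ctrl and Mcm6-SuOn ended above its 0 min value. Of the 18 rankings described next, the drop was larger in Mcm6-SuOn in 13.

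The size of the class difference depended on which 0 min library stood under the ranking. Earliest minus latest quintile was -0.130 on the log2 scale at 40 min and -0.0777 at 30 min, but 0.230 at 0 min. A window with few 0 min reads in Mcm6-ctrl is ranked early by the pooled counts, so the 0 min value is not independent of the ranking. Ranked over the Mcm6-SuOn 0 min counts alone, the difference at 40 min was -0.0687, with -0.111 at 30 min and 0.0560 at 0 min. In all, 18 rankings were looked at, from the 15 or the 30 min libraries, over pooled, Mcm6-SuOn or Mcm6-ctrl 0 min counts, and from both genotypes or 1. Early windows were lower than late ones in Mcm6-SuOn in 18 of 18. The differences ran from -0.165, with the 30 min libraries over Mcm6-ctrl 0 min counts, to -0.0352, with the Mcm6-ctrl 15 min library over Mcm6-SuOn 0 min counts. These rankings share libraries and are not independent of each other.

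The class difference was also present within groups of windows alike in the 0 min ratio. In quintiles of the 0 min ratio, earliest minus latest windows differed by between -0.0757 and -0.114, and the smallest group held 62 windows. Windows alike in this ratio can still differ in the 0 min counts under the ranking, so this split cannot set the part of those counts aside. By chromosome, the earliest windows were lower than the latest on 14 of the 14 chromosomes that had at least 20 of each, by between -0.0594 on chromosome XI and -0.188 on chromosome VIII. Chromosomes I and IX had no window in the latest quintile. More than 150 kb from an end, the earliest windows had a median of -0.0394 (1149 windows) and the latest 0.0569 (3850 windows). Between 75 and 150 kb the medians were -0.0926 (1319 windows) and -0.00480 (407 windows). Between 30 and 75 kb the earliest windows stood at -0.0939 (1807 windows), and only 18 windows were of the latest class. Base composition of the windows was not analysed here.

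**Figure D2:**
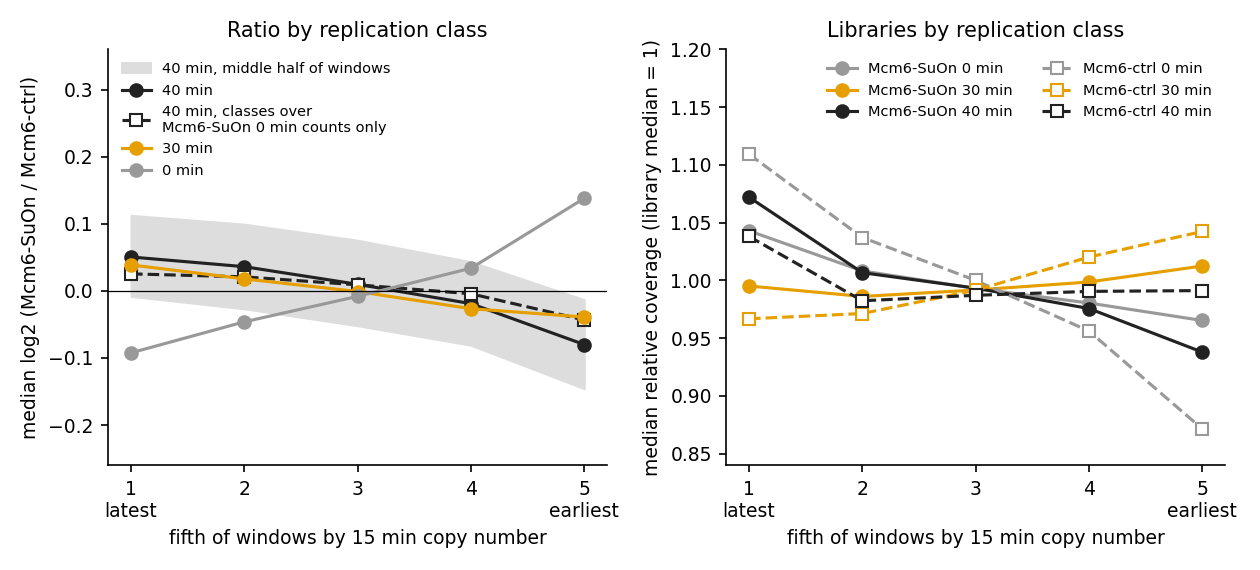
Left, median log2 ratio of Mcm6-SuOn to Mcm6-ctrl (y axis) in quintiles of windows ranked by 15 min copy number (x axis), at 0, 30 and 40 min, with a grey band between the quartiles of windows at 40 min and a dashed line for classes ranked over Mcm6-SuOn 0 min counts alone. Right, median coverage of the same quintiles in single libraries, with each library's median window as 1. At 40 min the ratio stands at 0.0504 in the latest and -0.0800 in the earliest quintile.

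Toward chromosome ends the ratio at 40 min was lower in Mcm6-SuOn over a wide zone, except in the outermost compared windows, which came from fewer ends. Within 30 kb of an end the median log2 ratio was -0.0449 (1244 windows), and farther than 75 kb it was 0.0115 (18661 windows), a difference of -0.0564. With the border at 15 kb it was -0.0161. From 5 kb inward to 150 kb the medians were below 0, with values of -0.0574 at 10 to 20 kb, -0.0611 at 30 to 50 kb, -0.0665 at 50 to 75 kb, -0.0586 at 75 to 100 kb and -0.0200 at 100 to 150 kb. Beyond 150 kb the median was 0.0249. Within 5 kb of an end it was 0.125, and 47.1% of the 85 windows there were at least 1.1-fold higher and none lower. These outermost windows came from 12 chromosome ends, and 294 windows lie at this distance in all. Ends with 9 or 10 of them were the right ends of chromosomes VI, XI and IX and the left ends of XI, III, XV and I. Their medians within 30 kb were 0.205, 0.000331, -0.00722, 0.155, 0.127, 0.0510 and -0.124. The left end of chromosome IX and the right end of chromosome XIII, lowest within 30 kb, had none. The change with distance along the same ends was not measured.

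At other times the same zone had another direction. The difference between windows within 30 kb and those beyond 75 kb was 0.235 at 0 min, 0.0290 at 15 min, then 0.0480 in the 30 min libraries. Between 20 and 30 kb from an end, median coverage in Mcm6-SuOn was 1.015, 1.087, 1.119 and 1.006 at 0, 15, 30 and 40 min. In Mcm6-ctrl it was 0.844, 1.061, 1.107 and 1.045. Mcm6-ctrl at 0 min thus stood apart in this zone by its low coverage, and at 40 min Mcm6-SuOn had returned to near its 0 min level while Mcm6-ctrl remained above its own.

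**Figure D3:**
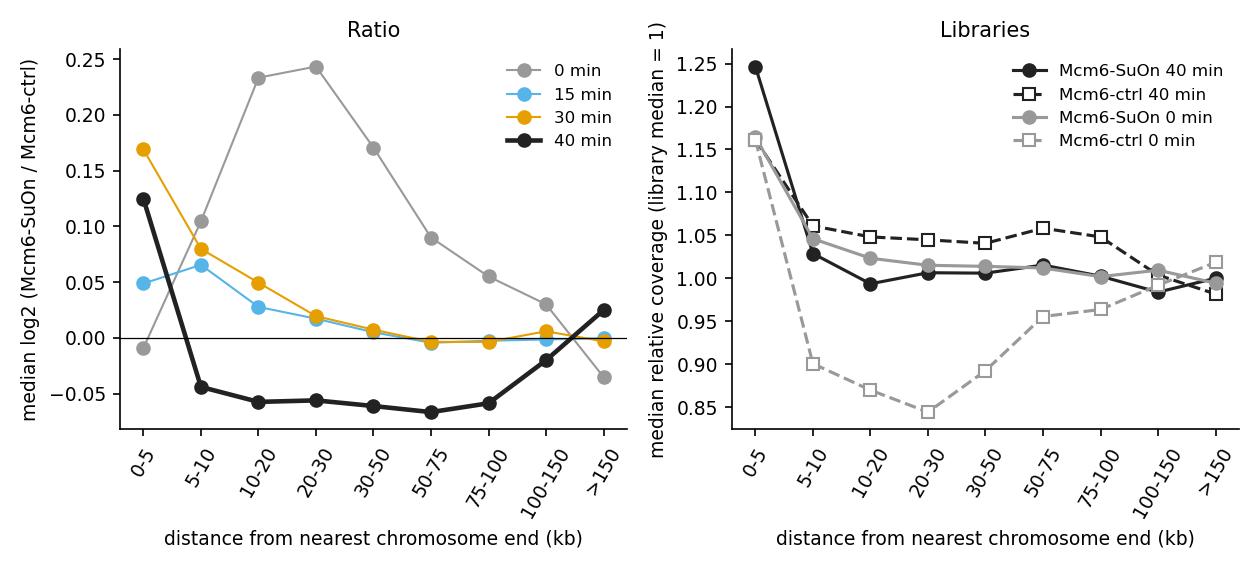
Left, median log2 ratio of Mcm6-SuOn to Mcm6-ctrl (y axis) by distance from the nearest chromosome end (x axis, kb), at 0, 15, 30 and 40 min. Right, median coverage by distance in the 40 and 0 min libraries, with each library's median window as 1. The 40 min ratio lies between -0.0440 and -0.0665 between 5 and 100 kb and at 0.125 in the outermost 5 kb, where 85 windows came from 12 ends.

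Single ends differed widely. Of 29 ends with at least 10 windows within 30 kb, 21 had a median ratio below 0. By 1.1-fold or more, 8 were lower in Mcm6-SuOn and 3 were higher. The left end of chromosome IX had the lowest median, -0.301, on 10 windows, followed by the right ends of chromosomes XIII (-0.272) and II (-0.209). The right end of chromosome VI stood highest at 0.205, with the left ends of chromosomes XIII at 0.172 and XI at 0.155. Opposite ends of the same chromosome could thus stand on opposite sides, as on chromosome VI, where the left end was at -0.165, and on chromosome XIII. These extreme ends were picked by their 40 min values. In 15 min copy number over the pooled 0 min counts, the 3 ends that were higher at 40 min were below the genome mean. They stood at -0.860, -0.828 and -0.626 SD on chromosomes VI, XIII and XI. The 3 lowest ends were above it, at 5.27, 4.28 and 3.06 SD on chromosomes IX, XIII and II. These places did not follow 15 min coverage alone. In Mcm6-ctrl, 15 min coverage was 1.388, 1.263 and 1.267 at the higher ends and 0.971, 0.917 and 0.984 at the lowest. The lowest ends had 0 min coverage of 0.482, 0.552 and 0.681 in Mcm6-ctrl, which raises their place in the profile. Their 0 min ratios were 0.811, 0.589 and 0.431 on the log2 scale, that is, higher in Mcm6-SuOn before release. Those of the 3 higher ends were -0.123, -0.154 and -0.145. Early copying and 0 min coverage were not tested apart for these ends.

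Among whole chromosomes, the short ones were lower in Mcm6-SuOn at 40 min. Chromosome I, the shortest, had the lowest median log2 ratio of -0.177. It held 351180 reads in Mcm6-SuOn and 290605 in Mcm6-ctrl, a scaled ratio of 0.884 (0.879 to 0.888). Of its windows, 64.7% were at least 1.1-fold lower and none higher. Chromosome IX followed at -0.0818, chromosome III outside its left-out part at -0.0577, chromosome VIII at -0.0351, chromosome VI at -0.0268 and chromosome V at -0.0145. All 6 chromosomes under 600 kb had a median below 0.

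The longer chromosomes lay close to or above 0. Chromosome XII was highest at 0.0424, with 2233728 reads in Mcm6-SuOn and 1577755 in Mcm6-ctrl and a scaled ratio of 1.035 (1.033 to 1.038). These sums include a few windows of very high count at 459001-461500, with 232973 and 157977 reads and a ratio of 1.079. Chromosome VII stood at 0.0261, chromosome XVI at 0.0165, chromosome IV at 0.0113 and chromosome XV at 0.0110. Chromosome II (-0.00964), chromosome XIV (-0.00764), chromosome XI (-0.00664), chromosome XIII (-0.00581) and chromosome X (-0.00244) lay nearest to 0. Across the 16 chromosomes the medians followed length with a Spearman rho of 0.897, and of 0.844 when windows within 75 kb of an end were left out. These chromosomes share a library pair, and the chromosomes differ in their classes, with 100% of the classed windows of chromosome I and 49.9% of those of chromosome IX in the earliest quintile. The part of class and of length in this order was not tested apart.

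The range between the lowest and the highest chromosome was 0.220 at 40 min, beside 0.293, 0.0959 and 0.0899 at 0, 15 and 30 min. In the 0 min libraries chromosome I was the highest, at 0.238. Without chromosome I the 40 min range was 0.124.

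**Figure D4:**
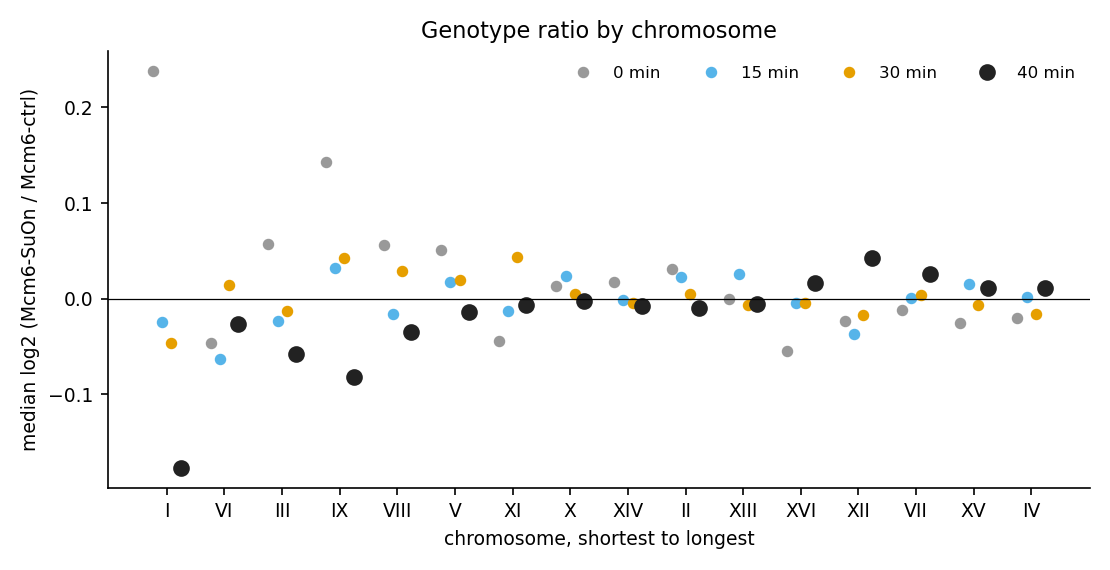
Median log2 ratio of Mcm6-SuOn to Mcm6-ctrl (y axis) for each of the 16 chromosomes, ordered from shortest to longest (x axis), at 0, 15, 30 and 40 min, with 1 library per genotype and time and chromosome III without its left-out part. At 40 min chromosome I lies at -0.177 and chromosome XII at 0.0424, and the 6 shortest chromosomes lie below 0.

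To place the difference along the genome, stretches were listed in which the rolling median of the ratio over 11 windows was at least 1.1-fold for at least 10 windows. There were 44 higher stretches with 642 kb in all and 54 lower ones with 664 kb, together 11.5% of the length compared. They were 5.5 kb to 37.5 kb long when higher and 5.5 kb to 43.0 kb when lower. Of the higher stretches, 5 of 44 reached within 75 kb of an end, and of the lower ones 32 of 54 did, where 17.6% of all compared windows lie. A stretch was counted by its window nearest an end, so the share of single windows is not a like measure. By 15 min copy number, 25 of the 40 higher stretches with a class fell in the 2 latest quintiles and 4 in the 2 earliest. Of 46 lower stretches with a class, 41 fell in the 2 earliest quintiles and 1 in the 2 latest. By construction each quintile holds an equal share of the classed windows. Few 0 min reads in Mcm6-ctrl rank a window early, and 39 of the 54 lower stretches were at least 1.1-fold higher at 0 min. These counts are thus not independent of the 0 min ratio. They were not repeated with classes over Mcm6-SuOn 0 min counts alone.

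In 44 of 44 higher stretches Mcm6-ctrl coverage at 40 min was below its own 0 min value, and in 5 of them it was still above the library median. Since these stretches were chosen by the ratio of the 40 min libraries, their values there are a description. The share of all windows with such a fall was not counted. In the latest quintile as a whole, median Mcm6-ctrl coverage also fell, from 1.109 at 0 min to 1.038 at 40 min. The stretch at chromosome IV 948501-982000 had the highest ratio of the 10 longest, with 64845 reads in Mcm6-SuOn and 38957 in Mcm6-ctrl and a scaled ratio of 1.217 (1.202 to 1.233). Its mean coverage in Mcm6-SuOn was 0.956, 0.930, 0.917 and 0.980 at 0, 15, 30 and 40 min. In Mcm6-ctrl it was 1.036, 0.925, 0.895 and 0.806. The genotypes were close at 15 and 30 min, with ratios of 1.01 and 1.02, and Mcm6-SuOn was lower at 0 min, at 0.921.

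The second highest of these ratios belonged to chromosome X 483501-508000, at 1.198 (1.181 to 1.216), with coverage of 0.971 in Mcm6-SuOn and 0.809 in Mcm6-ctrl at 40 min. The longest higher stretch, at chromosome XII 836001-873500, had a ratio of 1.15 (1.13 to 1.16), with coverage of 0.986 in Mcm6-SuOn and 0.860 in Mcm6-ctrl. Another on that chromosome, at 169001-199500, had 1.18 (1.16 to 1.19), with coverage of 1.041 in Mcm6-SuOn and 0.884 in Mcm6-ctrl. In each of these, Mcm6-SuOn stayed closer to its own 0 min coverage than Mcm6-ctrl, which was below its own. The stretch at chromosome VI 241001-270148, which runs to the right end, had a ratio of 1.16 (1.15 to 1.17). Its coverage was above the library median throughout, at 1.38, 1.34, 1.25 and 1.44 in Mcm6-SuOn and at 1.51, 1.38, 1.17 and 1.24 in Mcm6-ctrl. The others among the 10 longest, at chromosome XIII 316501-349000, chromosome VII 921001-953000 and 609001-633500, chromosome XVI 325001-350000 and chromosome XV 802001-826500, had ratios between 1.13 and 1.16.

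Over all 44 higher stretches, the median coverage in Mcm6-SuOn was 1.001, 0.987, 0.955 and 1.002 at 0, 15, 30 and 40 min. In Mcm6-ctrl it was 1.041, 0.989, 0.914 and 0.883. Coverage in Mcm6-SuOn was higher at 40 than at 30 min in 36 of 44 stretches, and in Mcm6-ctrl in 9. The choice by the 40 min ratio favours such counts, and the shares of all windows that rose were not counted. In the latest quintile as a whole both genotypes rose, from 0.995 to 1.072 in Mcm6-SuOn and from 0.967 to 1.038 in Mcm6-ctrl. In the 30 min libraries, which did not choose these stretches, Mcm6-SuOn was higher in 38 of 44, with a median ratio of 1.03 and 1 stretch past 1.1-fold. At 15 min it was higher in 20 of 44 and at 0 min in 10 of 44. The latest quintile as a whole had a median log2 ratio of 0.0386 at 30 min, also above 0. How many of all windows were higher at 30 min was not counted.

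Lower stretches were places where Mcm6-SuOn coverage was lower at 40 than at 30 min, which again is a description of places chosen by the 40 min ratio. The lowest ratio of the 10 longest was at chromosome I 166001-190500, with 36468 reads in Mcm6-SuOn and 33803 in Mcm6-ctrl and a scaled ratio of 0.789 (0.777 to 0.801). Its mean coverage in Mcm6-SuOn was 0.862, 0.930, 0.955 and 0.753 at 0, 15, 30 and 40 min. In Mcm6-ctrl it was 0.613, 0.968, 1.087 and 0.955. The lowest coverage in each genotype was thus at 40 min in Mcm6-SuOn and at 0 min in Mcm6-ctrl. The longest lower stretch, at chromosome II 762001-805000, had a ratio of 0.871 (0.862 to 0.880). Its coverage in Mcm6-SuOn was 0.931, 1.010, 1.053 and 0.865, and in Mcm6-ctrl it was 0.711, 0.975, 1.052 and 0.992. Here the genotypes were alike at 30 min, with a ratio of 1.00.

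The stretch at chromosome VIII 30501-72500 had a ratio of 0.841 (0.832 to 0.851), with coverage of 0.784 in Mcm6-SuOn and 0.931 in Mcm6-ctrl at 40 min. At chromosome XIII 872501-904000 the ratio was 0.864 (0.852 to 0.875), with coverage of 0.747 in Mcm6-SuOn and 0.864 in Mcm6-ctrl. That stretch was already lower at 30 min, with a ratio of 0.931. Chromosome III 90501-118000 and chromosome VI 29501-51500 differed from these in that the genotypes were closer at 0 min, with ratios of 1.07 and 1.07 there and of 0.889 and 0.886 at 40 min. The remaining lower stretches among the 10 longest were at chromosome IX 68501-98000, chromosome IV 1412501-1433500 and chromosome I 140501-160500 and 46501-65500, with ratios between 0.865 and 0.876.

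Over all 54 lower stretches, the median coverage in Mcm6-SuOn was 0.953, 1.006, 1.022 and 0.891 at 0, 15, 30 and 40 min. In Mcm6-ctrl it was 0.832, 0.987, 1.022 and 1.007. Coverage in Mcm6-SuOn was lower at 40 than at 30 min in 54 of 54 stretches, and in Mcm6-ctrl in 34. It was below its 0 min value in 45 stretches in Mcm6-SuOn and in none in Mcm6-ctrl. Because the 40 min ratio chose these stretches, such counts are favoured by the choice. The shares of all windows were not counted, so the counts are a description only. The earliest quintile as a whole moved in the same directions. Its medians at 0, 30 and 40 min were 0.965, 1.012 and 0.938 in Mcm6-SuOn and 0.872, 1.042 and 0.991 in Mcm6-ctrl. In the 30 min libraries, Mcm6-SuOn was lower in 36 of the 54, with a median ratio of 0.975. At 15 min it was lower in 21, with a median ratio of 1.02. At 0 min it was lower in 2, and higher by at least 1.1-fold in 39. The earliest quintile as a whole had a median log2 ratio of -0.0390 at 30 min, also below 0.

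**Figure D5:**
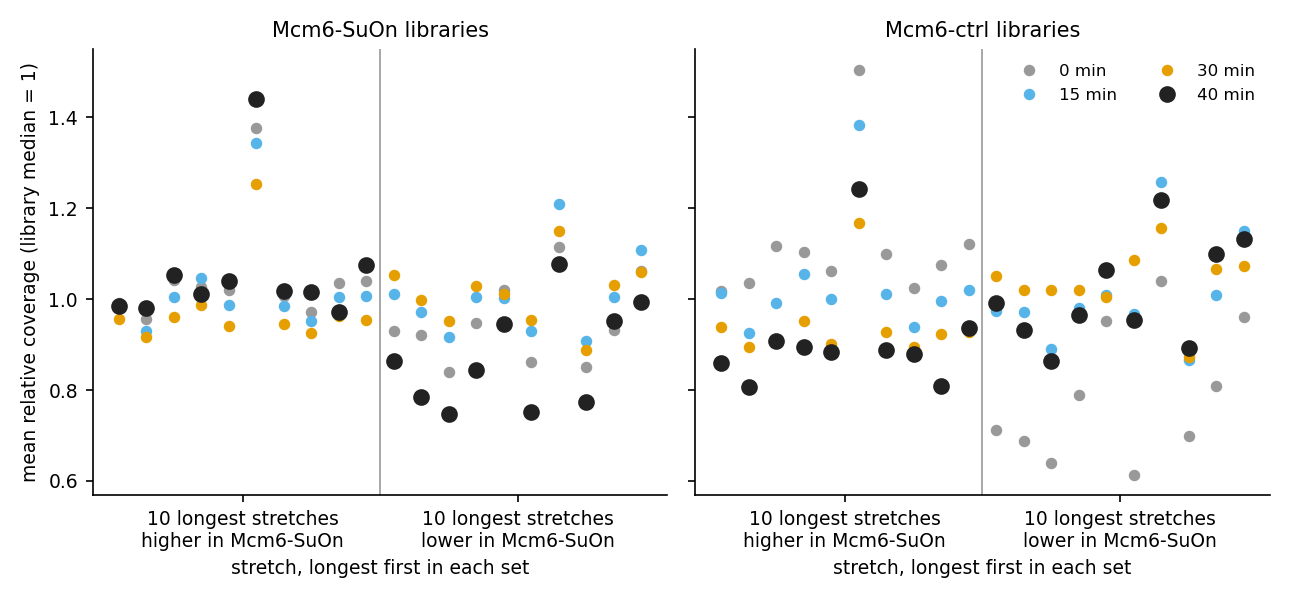
Mean coverage (y axis, each library's median window as 1) of the 10 longest stretches higher and the 10 longest stretches lower in Mcm6-SuOn at 40 min (x axis), in Mcm6-SuOn libraries on the left and Mcm6-ctrl libraries on the right, coloured by time. Among the higher stretches Mcm6-ctrl at 40 min is as low as 0.806, and among the lower stretches Mcm6-SuOn at 40 min is as low as 0.747.

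The most extreme single windows lay in few places, in part because neighbouring windows overlap and share reads. Of the 5 highest windows, 4 were at chromosome IV between 964501 and 969500, within the stretch described above. The highest, at 968001-969000, held 1980 reads in Mcm6-SuOn and 981 in Mcm6-ctrl, a scaled ratio of 1.48 (1.37 to 1.60), beside 0.945 at 15 min and 1.04 at 30 min. The other was at chromosome XII 461001-462000, with 2379 and 1205 reads and a ratio of 1.44 (1.35 to 1.55). It borders windows of very high count, and its ratio was 1.21, 0.875 and 1.13 at 0, 15 and 30 min. The 5 lowest were all on chromosome I between 184501 and 198500. The lowest, at 197501-198500, held 1072 reads in Mcm6-SuOn and 1196 in Mcm6-ctrl, a ratio of 0.656 (0.603 to 0.712). Its Mcm6-ctrl count at 0 min was 608, close to the limit of 600 for being listed, and the Mcm6-SuOn count was 1189.

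Sites of early copy number were set against their surroundings. Over the 177 sites of the main list, the local difference between genotypes was smaller at 40 min than at 30 min. Sites were the 177 peaks of the mean 15 min profile, and each was set against the lowest points of the profile on either side. The median log2 ratio at 40 min was -0.0209 at the sites and 0.0135 at the low points. Site minus low points had a median of -0.0326, with quartiles of -0.0789 and 0.0159, and was negative at 115 of 177 sites. At 30 min it was -0.128 and negative at 165 sites. The 40 min value rested on how the sites were called. With the Mcm6-SuOn 0 min counts alone under the profile, which gave 384 sites, it was 0.00130, so that no local difference at 40 min can be stated from it. At the 37 sites with a prominence of at least 2 SD it was -0.127. The 30 min value was not computed for either of these other lists, so the comparison of times rests on the main list.

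The 10 sites with the highest 15 min copy number were all lower in Mcm6-SuOn at 40 min, with a median log2 ratio of -0.174. At 30 min their median was -0.0963, and 7 of the 10 were lower at 40 than at 30 min. Apart from the site at chromosome IV 1387501-1388500, these sites lie within 75 kb of a chromosome end, as do 17.6% of all compared windows. Windows of any class had median log2 ratios at 40 min of -0.0611 at 30 to 50 kb and -0.0665 at 50 to 75 kb. Over all 177 sites the median at 40 min was -0.0209. Early copy number and nearness to an end were not tested apart for these sites. The highest-ranked, at chromosome XIII 897501-898500, had a coverage of 0.804, 0.982, 1.002 and 0.756 in Mcm6-SuOn at 0, 15, 30 and 40 min. In Mcm6-ctrl it had 0.581, 1.009, 1.111 and 0.907. The next, at chromosome I 171501-172500, had 0.841, 0.974, 1.002 and 0.769 in Mcm6-SuOn and 0.636, 1.019, 1.219 and 0.997 in Mcm6-ctrl. The log2 ratios at 40 min were -0.264 and -0.377. Both sites lie in lower stretches named above. Low 0 min coverage in Mcm6-ctrl raises a site's rank, and it was lowest of the 10, at 0.439, at the site of chromosome I 24501-25500. The sites at chromosome VIII 44501-45500 and chromosome IV 1387501-1388500 stood at -0.267 and -0.232, those at chromosome I 24501-25500 and chromosome IX 404001-405000 at -0.188 and -0.160. At chromosome V 58001-59000, chromosome XIV 60501-61500 and chromosome III 74001-75000 the ratios were -0.116, -0.114 and -0.105. At chromosome XV 1058501-1059500 it was -0.00950. Against their low points, 7 of the 10 were lower.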

How the data were processed

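For the 0 min libraries the authors deposited raw read counts in windows of 1000 bp every 500 bp, without a header. For later times they deposited ratios per window, which per the file headers and the values are the later count over the 0 min count of the same genotype, a version adjusted by chromosome, and a smoothed one. The submitters' processing notes name sacCer2 as the build. Which aligner, filters and counter were used is not given in the sources used here.

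A ratio times its 0 min count gave the later count. Because the ratios are rounded, the error was at most about 1 read in nearly all compared windows. It was larger in the few windows of very high count. Library depth at 40 min was 23091517 reads in Mcm6-SuOn and 16874459 in Mcm6-ctrl in non-overlapping compared windows. At 0, 15 and 30 min it was 18111823, 13567242 and 16548202 in Mcm6-SuOn and 15270083, 15802746 and 17622974 in Mcm6-ctrl. Reads have no molecular identifiers, so intervals cover counting error only.

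Profiles used for ranking were smoothed over 5 kb and scaled to equal SD. A site was a local maximum over 5 kb in each direction whose prominence reached 1 SD, and site values are means over 5 windows. Named stretches are the 10 longest in each direction, named windows the 5 highest and 5 lowest, and named sites the 10 highest. Members, rules and lists were chosen with earlier results of these data known. Comparisons within groups of windows, single ends, counts over stretches, windows of high count and 13 of the 18 rankings were added after these data had been looked at. Scripts were tested on simulated data and used Python 3.11.15, numpy 2.4.6, pandas 2.3.3 and scipy 1.17.1.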

Additional observations from a re-analysis of the deposited data

Results flagged for a closer look

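Each of these contrasts between Mcm6-SuOn and Mcm6-ctrl had the opposite sign at another time, with 1 library per genotype and time, and the difference between times was not tested. The difference between windows within 30 kb of a chromosome end and those beyond 75 kb was -0.0564 on the log2 scale at 40 min, and 0.235 at 0 min, 0.0290 at 15 min and 0.0480 at 30 min. Earliest minus latest quintile was -0.130 at 40 min and 0.230 at 0 min, where the ranking shares the 0 min counts. Sites minus their low points was -0.0326 at 40 min and 0.0296 at 0 min, but the sites too come from a profile over the 0 min counts, and the 40 min value was 0.00130 with sites called over Mcm6-SuOn 0 min counts, so its sign is not settled.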

How the results depend on the processing

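Dividing by total counts shifts every log2 ratio by the same amount, so only the window counts could change. They were then 2308 higher and 2383 lower, and the identical other values are no check. Asking for at least 1000 counts moved no result beyond its counting error or a count by 1.5 times. In the deposited ratios, which bring in each genotype's 0 min library, the SD was 0.226, 5535 windows were higher and 5897 lower, the end difference was -0.299, the class difference -0.354, the site difference -0.0552 and the chromosome range 0.503. Taking every second window gave 1172 higher and 1172 lower windows, since fewer windows entered. At 1.2-fold there were 240 and 277, and after a 5 kb rolling mean 1549 and 1514. Keeping all of chromosome III gave an SD of 0.118, an end difference of -0.0518 and a class difference of -0.126. Without chromosome XII the end difference was -0.0491 and the chromosome range 0.203. More than 30 kb from ends the SD was 0.109. Within 15 kb the end difference was -0.0161. The class difference was -0.112 with classes from Mcm6-ctrl at 15 min, -0.139 from Mcm6-SuOn, -0.160 from 30 min and -0.0687 over Mcm6-SuOn 0 min counts. The site difference was -0.0174 with sites from Mcm6-ctrl, -0.0265 from Mcm6-SuOn and -0.127 at 2 SD. Settings added after the data were seen gave class differences of -0.0873 (Mcm6-SuOn at 15 min), -0.0352 (Mcm6-ctrl at 15 min), -0.117 (both at 30 min), -0.122 (Mcm6-SuOn at 30 min) and -0.0984 (Mcm6-ctrl at 30 min) over Mcm6-SuOn 0 min counts. Over Mcm6-ctrl 0 min counts they were -0.144, -0.149 and -0.134 at 15 min and -0.165, -0.165 and -0.156 at 30 min, for both, Mcm6-SuOn and Mcm6-ctrl. Over pooled counts at 30 min they were -0.162 from Mcm6-SuOn and -0.145 from Mcm6-ctrl. Also added were a reversed 0.00130 for sites from both 15 min libraries over Mcm6-SuOn 0 min counts, and a chromosome range of 0.124 without chromosome I. The cause was not tested. No paired analysis was possible because each group holds 1 library.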

Other observations

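A short part of chromosome XII, 459001-461500, held 4 windows with more than 10 times the median count in both 0 min libraries. The repeated ribosomal RNA genes of yeast lie on this chromosome, but these windows were not placed against an annotation. At 40 min, non-overlapping windows there held 232973 reads in Mcm6-SuOn and 157977 in Mcm6-ctrl, a scaled ratio of 1.079 (95% interval 1.072 to 1.086 for counting error). The ratio was 1.047 (1.039 to 1.055) at 0 min, 0.925 (0.917 to 0.932) at 15 min and 1.026 (1.018 to 1.033) at 30 min. The highest of the windows stood at 69.6, 68.8, 71.8 and 83.9 times the library median in Mcm6-SuOn at 0, 15, 30 and 40 min, and at 67.0, 74.8, 70.2 and 78.3 times in Mcm6-ctrl. Both genotypes thus had their highest coverage there at 40 min, and the order of the genotypes was not the same at all times.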
